A study of Mus musculus with 2 samples.

Results

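The ATP-binding cassette (ABC) transporter genes were followed in MIN6 cells given a glucocorticoid receptor (GR) expression vector. Members were the protein-coding rows of the deposited all-gene table whose symbol begins with Abca, Abcb, Abcc, Abcd, Abce, Abcf or Abcg and a digit, with Abcc8 left out. There were 40 such genes of 21542 in the table. The genes were chosen by name, and the family was selected on its high normalized score in the deposited enrichment report. That report came from the same 2 libraries, so counts and folds of the members are given as a description and nothing is read from them about the family. MIN6 is a mouse insulinoma line that models the insulin-secreting beta cell, labelled here with the strain C57BL/6. The labels give 1 library from cells transfected with a GR expression vector (18525668 reads over genes) and 1 library from cells transfected with a control vector (18537326 reads). Both cultures were in medium with 25 mM glucose and 15% serum and received 4 ug of plasmid with 4.8 ul of Lipofectamine in a 3.5 cm dish. No source used here gives the form of the GR cDNA, the harvest time or any added hormone. The libraries are called GR and control for short where values follow each other. With 1 library per group no difference below has a replicate check, and every interval covers counting error only.

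ABC proteins bind and hydrolyse ATP in a pair of conserved nucleotide-binding domains and, in most subfamilies, use that energy to move a substrate across a membrane. The A and G subfamilies mainly move lipids and sterols, the B and C subfamilies peptides, drugs, bile salts and organic anions, and the D subfamily fatty acyl compounds and cobalamin. The E and F proteins lack membrane domains and act on the ribosome. In the beta cell the family is best known for Abcc8, the sulfonylurea receptor of the ATP-sensitive potassium channel, and for the cholesterol exporters Abca1 and Abcg1, whose loss impairs insulin secretion in mice.

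The GR gene Nr3c1 had 5202 reads with the GR vector and 2645 with the control vector, a fold of 1.97 (95% interval 1.88 to 2.07). The beta cell markers Ins2 and Iapp were the most read of their list, with 373033 and 273874 reads with the GR vector against 407986 and 283796 with the control vector. Of the 10 genes of that list, 5 had a fold above 1 and 5 below, from 0.915 to 1.04. The library comparison described below called 3 of them lower, Ins2, Iapp and Ins1, where it called 1.14% of all genes lower. Among the 4867 genes that averaged 1000 reads or more, as these 3 did, it called 154 lower. Of 27 markers of alpha, delta, PP, acinar, duct, fibroblast, endothelial and immune cells, 14 had a row in the table, with 3567 reads in all with the GR vector and 3698 with the control vector. Most of these reads were those of the duct marker Krt7, with 2166 reads with the GR vector and 2429 with the control vector, called lower by the library comparison described below. The alpha, delta and PP cell markers together had 746 reads with the GR vector and 638 with the control vector, with folds of 1.16 for Gcg (95% interval 1.04 to 1.31) and 1.24 for Sst (0.936 to 1.65). Their part in the results below was not tested. The other 13 had no row. In such bulk RNA, fewer cells of a type and less RNA per cell cannot be told apart.

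Together the 40 ABC genes took 0.210% of the reads with the GR vector and 0.209% with the control vector. The summed reads were 38900 with the GR vector and 38789 with the control vector, a fold of 1.01 (95% interval 0.992 to 1.02). The mean over both libraries was 50 reads or more for 27 members, which held 38700 reads with the GR vector and 38634 with the control vector. The member just above this limit was Abcb1a with a mean of 108.5 reads, and the one just below it was Abcd2 with 37 reads in each library. Of the 27, 15 averaged 1000 reads or more, the lowest fold among them being 0.901 for Abcf2. These 15 included 1 higher and 1 lower past a fold of 1.1, 2 in either direction, where 4.11% and 2.98% of the 4867 genes so deeply read were higher and lower, 7.09% in all.

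**Figure D1:**
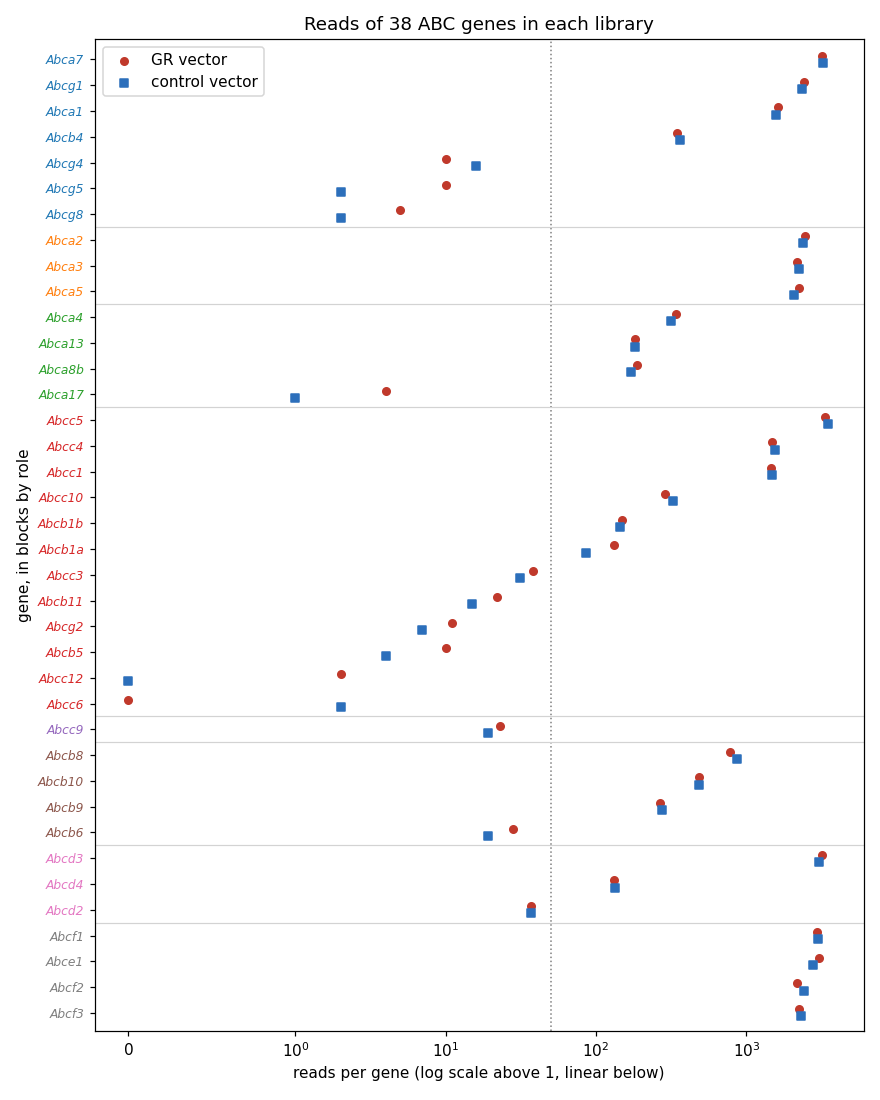
Reads per gene (log scale above 1, linear below) of 38 ABC genes with the GR vector (circles) and with the control vector (squares), in blocks by role; the dotted line marks 50 reads. For most genes right of the line the symbols nearly coincide, and the widest gap there is that of Abcb1a (131 reads with GR and 86 with control).

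Levels of different genes were compared per length, as reads per kilobase of the deposited gene length, scaled to the library's depth (RPKM). The translation factors of the F subfamily headed the order. Abcf2 had a level of 45.5 RPKM with the GR vector and 50.6 with the control vector, Abcf1 35.9 with GR and 36.4 with control, and Abcf3 33.8 with GR and 34.9 with control. Abcg1 came next at 31.9 RPKM with GR and 30.97 with control, followed by Abce1 at 27.2 with GR and 24.9 with control, Abcd3 at 26.2 with GR and 25.0 with control and Abca7 at 25.3 with GR and 25.6 with control. Abce1, the highest of the last 3 with the GR vector, was the lowest of them with the control vector. All these genes were an order of magnitude or more above the multidrug genes Abcb1a (1.29 RPKM with GR and 0.847 with control) and Abcb1b (1.00 RPKM with GR and 0.972 with control). The place of Abcg1 rests on its deposited length of 4066 bases. The same reads divided by the 7298 bases of its annotated exons gave 17.8 RPKM with the GR vector and 17.3 with the control vector. Reads were not counted anew over those exons, so these 17.8 and 17.3 RPKM change the length alone. Abcc8, which the choice of members left out, had a level of 165 RPKM with the GR vector and 177 with the control vector, above every member.

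**Figure D2:**
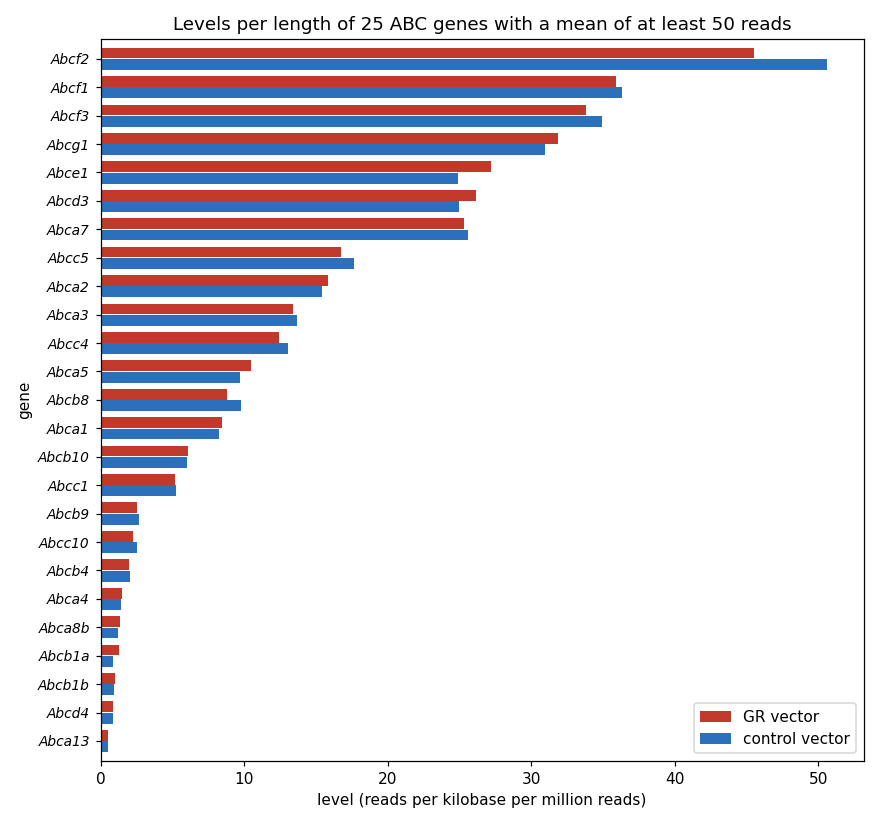
Level per length (RPKM) of 25 ABC genes that averaged 50 reads or more, with the GR vector (upper bar) and the control vector (lower bar). The F subfamily genes Abcf2, Abcf1 and Abcf3 lie highest, and the multidrug genes Abcb1a and Abcb1b are among the lowest.

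A gene was called at a fold of 1.2 or more in either direction. Of the 27 members that averaged 50 reads or more, 1 was higher with the GR vector and 0 were lower, while 4.03% and 3.96% of the 12119 genes so read were higher and lower, 7.99% in all. Most of those calls over all genes, 479 higher and 475 lower, were at means of 50 to 1000 reads. Only 12 of the 27 members lay there. The median log2 fold change over the 27 was -0.01 and the mean 0.03, which differ in sign, and 13 members lay above 0 and 14 below. Over all genes with that mean the median was 0.0037 and 51.0% lay above 0. The counting interval of the fold left out 1 for 7 of the 27 members and for 18.7% of all such genes. In the authors' deposited table, 0 of the 40 members passed an adjusted p of 0.05 (0.00928% of all genes were higher and 0.00928% lower by that rule, 0.0186% in all). By the unadjusted p of the authors' deposited table, 0 of the 40 passed 0.05, against 1.09% of all genes. None was among the 233 genes of the authors' deposited list (1.08% of all genes). The lowest unadjusted p of a member in the authors' deposited table was 0.0623, for Abcg5.

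A comparison of the reads of the 2 libraries by an exact binomial test, with Benjamini-Hochberg adjustment over all genes, called 2 members higher with the GR vector, Abce1 among them, and 1 lower, Abcf2. Over all genes it called 1.58% higher and 1.14% lower, 2.72% in all. This test compares the libraries and not the conditions, because the spread between cultures was not measured. With adjustment over only the 12119 genes that averaged 50 reads or more, it called 3 members higher, Abcb1a being added, and 1 lower, against 3.23% and 2.37% of those genes. With the edgeR exact test and a preset dispersion of 0.01, which allows for such spread, 0 members were called, against 0.0464% of all genes higher and 0.0279% lower. At a dispersion of 0.04 it was also 0 members, against 0.00928% of all genes in each direction. That setting gives the authors' deposited p-values again, so it repeats their result and adds none.

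**Figure D3:**
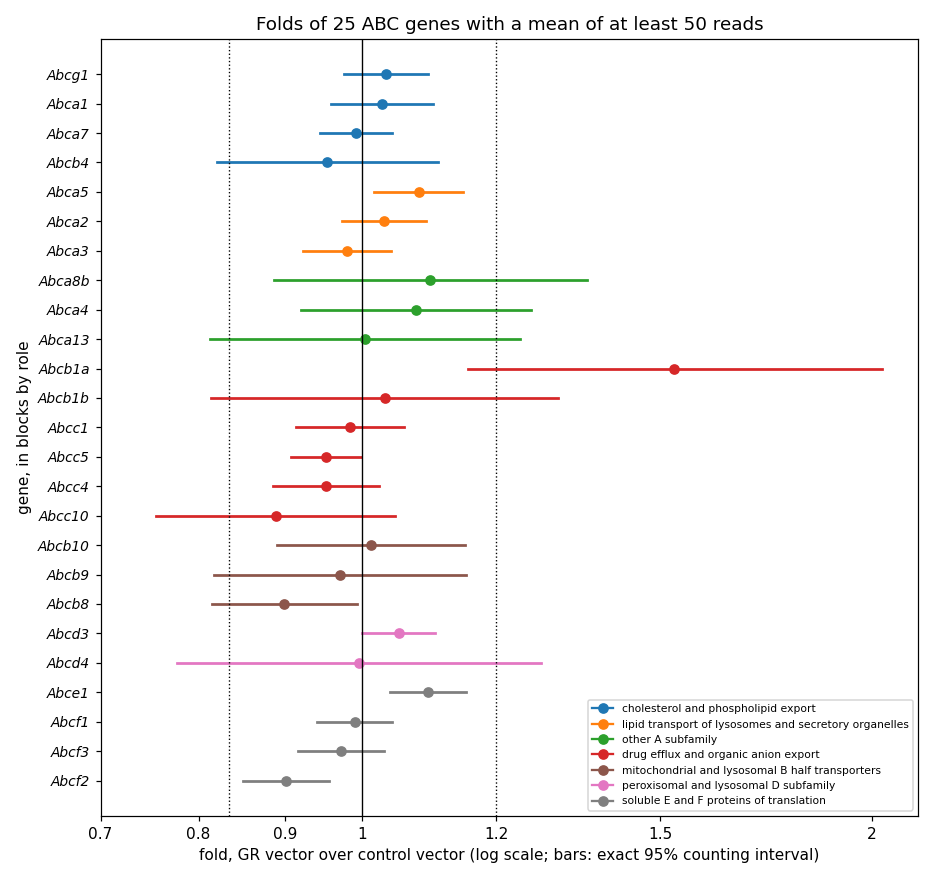
Fold, GR vector over control vector (log scale), for 25 ABC genes that averaged 50 reads or more, in blocks by role; bars are exact 95% counting intervals, the solid line marks a fold of 1 and the dotted lines a fold of 1.2 in either direction. Of the genes drawn, only Abcb1a (1.53) lies past a dotted line, with a wide interval.

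The sterol and phospholipid exporters were close to equal in both libraries. Abca1, which loads cholesterol and phospholipid onto apolipoprotein A-I, had 1618 reads with the GR vector and 1580 with the control vector (fold 1.03, 95% interval 0.958 to 1.101). Abcg1, which passes cholesterol on to high-density lipoprotein, had 2403 reads with GR and 2334 with control (fold 1.03, 0.975 to 1.09). Abca7, a phospholipid transporter related to Abca1, had 3169 reads with the GR vector and 3207 with the control vector (fold 0.991, 0.943 to 1.04), the most reads of this group. Abcb4, known as the phosphatidylcholine translocator of the bile canaliculus, had 344 reads with GR and 362 with control (fold 0.953). Summed over the 4 genes, the fold was 1.01 with an interval of 0.978 to 1.04, which included 1.

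The sterol exporters Abcg5 and Abcg8 were barely read. They encode the subunits of one heterodimer that exports plant sterols and cholesterol, and they lie on opposite strands of chromosome 17. Abcg5 had 10 reads with the GR vector and 2 with the control vector, and Abcg8 had 5 with GR and 2 with control. The gene models of the pair overlap by 6710 bases on opposite strands, and how strand was handled in counting is not given in the sources used here, so their reads cannot be fully told apart. RefSeq gives Abcg8 a second start, 110 bases from that of Abcg5 and on the other strand, and the promoter windows of these starts share 209 bases. The GR consensus is built of a hexamer, TGTTCT on one strand and AGAACA on the other. The shared stretch holds one copy, at positions 84683075 to 84683080, and it is shown in capitals in the Abcg5 window below (GRCm38.p6, chr17:84682962-84683261, minus strand, written 5′ to 3′).
Abcg5: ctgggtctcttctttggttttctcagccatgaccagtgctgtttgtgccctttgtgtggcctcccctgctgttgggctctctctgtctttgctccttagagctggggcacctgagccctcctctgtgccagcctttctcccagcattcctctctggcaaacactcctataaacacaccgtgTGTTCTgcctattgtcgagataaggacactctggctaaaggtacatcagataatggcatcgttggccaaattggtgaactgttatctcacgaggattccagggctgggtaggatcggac

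Lipid transporters of lysosomes and secretory organelles were well read. Abca2, of endosomes and lysosomes, had 2455 reads with the GR vector and 2391 with the control vector (fold 1.03, 95% interval 0.973 to 1.09). Abca3, which fills the lamellar bodies of the lung with lipid, had 2182 reads with GR and 2235 with control (fold 0.979, 0.923 to 1.04). Abca5, another lysosomal A subfamily protein, had 2223 reads with the GR vector and 2065 with the control vector (fold 1.08, 1.02 to 1.15). Its transcripts are 39.1% G and C, and with the trend of folds on GC content removed its log2 fold change was 0.04 in place of 0.11. The other measured A genes had fewer reads. Abca4, the retinal flippase of photoreceptors, had 339 with GR and 316 with control, Abca8b 187 with GR and 171 with control, and the very long gene Abca13 had 182 in each library. For all of the last 3 the interval of the fold included 1.

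Drug and organic anion exporters held Abcb1a, the one member past the fold of 1.2 among those that averaged 50 reads or more. Abcb1a and Abcb1b are the rodent genes of P-glycoprotein, the multidrug efflux pump, and with Abcb4 they stand side by side on chromosome 5 between 8660077 and 8959231. Abcb1a (8660077 to 8748575, plus strand) had 131 reads with the GR vector and 86 with the control vector. The fold of 1.53 had an interval of 1.16 to 2.03 and an adjusted p of 0.0698 in the exact binomial comparison of the libraries over all genes. In the authors' deposited table its unadjusted p was 0.195. Its paralogue Abcb1b (8798147 to 8866315, plus strand) had 148 reads with GR and 144 with control, a fold of 1.03 (0.814 to 1.31). Of the 31-base stretches of Abcb1a transcripts, 28.2% also occur in another annotated gene, and 21.7% occur in Abcb1b. Reads from such stretches may be split between the pair or dropped, depending on the counting, and their part in the fold of Abcb1a was not tested.

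The RefSeq promoter windows of these 3 neighbours are printed to show how their starts differ around the GR hexamer, again in capitals (GRCm38.p6, plus strand, 5′ to 3′). The Abcb1a window (chr5:8566841-8567140) belongs to a start 92986 bases before the gene start in the deposited table, and its one hexamer begins 38 bases after that start. The Abcb1b window (chr5:8797897-8798196) holds none. The Abcb4 window (chr5:8893471-8893770) holds one that begins 183 bases before the start.
Abcb1a: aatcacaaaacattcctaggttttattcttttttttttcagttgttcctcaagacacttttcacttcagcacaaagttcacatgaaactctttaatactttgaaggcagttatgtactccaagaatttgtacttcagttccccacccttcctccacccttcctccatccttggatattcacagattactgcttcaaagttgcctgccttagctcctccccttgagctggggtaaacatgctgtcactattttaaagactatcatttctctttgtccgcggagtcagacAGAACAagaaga
Abcb1b: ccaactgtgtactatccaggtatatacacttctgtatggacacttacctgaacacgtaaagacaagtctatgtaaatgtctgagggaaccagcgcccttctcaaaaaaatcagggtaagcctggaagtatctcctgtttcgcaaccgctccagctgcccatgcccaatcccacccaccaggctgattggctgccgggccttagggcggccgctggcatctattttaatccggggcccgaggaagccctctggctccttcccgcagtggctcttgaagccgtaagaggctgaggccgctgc
Abcb4: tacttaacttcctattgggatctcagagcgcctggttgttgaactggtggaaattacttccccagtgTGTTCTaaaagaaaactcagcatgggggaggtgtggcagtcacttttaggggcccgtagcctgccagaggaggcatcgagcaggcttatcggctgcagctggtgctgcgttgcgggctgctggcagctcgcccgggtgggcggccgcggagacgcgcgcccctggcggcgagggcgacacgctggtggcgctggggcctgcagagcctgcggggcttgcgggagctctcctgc
The window of Abcb1a is poor in G and C (40.3%) beside those of Abcb1b (55.0%) and Abcb4 (64.0%). Abcb4 had a fold of 0.953 and Abcb1a one of 1.53. Whether the hexamer has a part in these folds was not tested.

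Over the family, RefSeq windows were found for 30 of the 40 members, 37 windows in all. Those for Abcb8, Abcc1, Abcc3, Abcc6, Abcd2, Abcd4, Abcg1 and Abcg4 are among the missing entries. The hexamer (TGTTCT or AGAACA, both strands) was found in 9 of the 37 windows, 24.3%, against 19.0% of all 32851 windows of the same length. The copy shared by Abcg5 and Abcg8 counts in both of their windows. The median G and C content was 61.7% in the windows of members and 52.7% in all windows. The full palindromic GR consensus, both hexamers with 3 bases between, was found in 0 of the 37 and in 3 of all windows. Members that averaged 50 reads or more and had a hexamer in a window were 4, Abca1, Abcb1a, Abcb4 and Abcc4, with folds from 0.951 to 1.53 and a median of 0.990. The 17 such members without one had folds from 0.888 to 1.097 and a median of 1.00. The hexamer of Abcc4 is in the window of a start 29288 bases from its gene start in the deposited table. The window at that gene start holds none. Whether a hexamer has a part in the folds was not tested. A match of these letters is a description and not a binding site.

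All 4 C subfamily members that averaged 50 reads or more had a fold below 1. Abcc5 (Mrp5), an exporter of cyclic nucleotides and other organic anions, was the most read, with 3317 reads with the GR vector and 3496 with the control vector (fold 0.952, 95% interval 0.907 to 0.998). Abcc4 (Mrp4), which also exports cyclic nucleotides as well as prostanoids, had 1469 reads with GR and 1549 with control (fold 0.951, 0.885 to 1.02). Abcc1 (Mrp1), the exporter of glutathione conjugates, had 1449 with GR and 1478 with control (fold 0.983), and Abcc10 (Mrp7) 287 with GR and 324 with control (fold 0.888, 0.755 to 1.04). Their reads summed to 6522 with the GR vector and 6847 with the control vector, a fold of 0.955 (0.923 to 0.988). The exact binomial comparison of the libraries called 0 of the 4 lower, where it called 1.14% of all genes lower. Abcc8, of the same subfamily, had 24777 reads with GR and 26562 with control, a fold of 0.935 (0.919 to 0.952), and the same comparison called it lower. Over the whole table, 5933 of the 12119 genes so read had a fold below 1.

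Not all transporters of mitochondria and lysosomes are described here, so nothing is said of the group. The library comparison did not call Abcb8, Abcb10 or Abcb9, and it called 2.72% of all genes. Abcb8, of the mitochondrial inner membrane, had 771 reads with GR and 860 with control (fold 0.899, 95% interval 0.815 to 0.992). Abcb10, which takes part in heme synthesis, had 485 reads with GR and 481 with control (fold 1.01), and Abcb9, a lysosomal peptide transporter, 267 with GR and 276 with control (fold 0.970). The porphyrin transporter Abcb6 was under the limit, with 28 reads with GR and 19 with control, and shares 52.1% of its 31-base stretches with another gene.

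In the D subfamily, the counting interval of the fold included 1 for all 4 members. Abcd3 (Pmp70), a peroxisomal importer of branched-chain and bile acid intermediates, had 3196 reads with the GR vector and 3051 with the control vector (fold 1.051, 95% interval 0.999 to 1.104). Abcd4, which exports cobalamin from the lysosome, had 132 reads with GR and 133 with control (fold 0.995). Abcd2, a peroxisomal importer of very long-chain acyl compounds, had 37 reads in each library.

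The soluble proteins of translation gave the opposed pair of the family. Abce1 (chromosome 8, 79683462 to 79711740, minus strand), which splits the ribosome into its subunits after termination, had 3023 reads with the GR vector and 2774 with the control vector. Its fold was 1.09 (95% interval 1.04 to 1.15), with an adjusted p of 0.0348 in the exact binomial comparison of the libraries. Its transcripts are 40.03% G and C, and its log2 fold change of 0.13 became 0.06 with the GC trend removed. Abcf2 (chromosome 5, 24565345 to 24577467, minus strand) had 2166 reads with the GR vector and 2411 with the control vector, a fold of 0.901 (0.850 to 0.955) with an adjusted p of 0.0249 in the same comparison. Its log2 fold change of -0.15 was -0.13 with the GC trend removed. Abcf1, which binds the initiation factor eIF2 and ribosomes, had 2933 reads with GR and 2973 with control (fold 0.989, 0.940 to 1.04). Abcf3 had 2231 reads with GR and 2305 with control (fold 0.971, 0.915 to 1.03). The 3 F genes together had 7330 reads with the GR vector and 7689 with the control vector (fold 0.956, 0.926 to 0.987), most of the difference being that of Abcf2.

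Of the 13 members with a mean under 50 reads, 10 had more reads with the GR vector, 2 had fewer and 1, Abcd2, had the same number. Of all 9423 genes read so little, 42.5% had more and 45.6% fewer. Summed over the 13, there were 200 reads with the GR vector and 155 with the control vector, a fold of 1.29 (95% interval 1.04 to 1.61). Over all such genes the summed fold was 0.979. Because the family was selected on a score from the reads of these same 2 libraries, the sum is a description and nothing is read from it. The members were spread over roles. All 13 are named here or in paragraphs above, a choice made after their values were seen. Abcc9, the sulfonylurea receptor of cardiac and vascular potassium channels, had 23 reads with GR and 19 with control, the bile salt export pump gene Abcb11 22 with GR and 15 with control, and the conjugate exporter Abcc3 38 with GR and 31 with control. The efflux pump gene Abcg2 had 11 with GR and 7 with control, Abcb5 10 with GR and 4 with control, and Abca17 4 with GR and 1 with control. More reads with the control vector were found for Abcg4, a brain sterol exporter, with 10 reads with the GR vector and 16 with the control vector. Abcc6 had 0 reads with GR and 2 with control and Abcc12 had 2 with GR and 0 with control. Both counts lie within the 3 reads that a count of 0 allows, so no fold is given. The library comparison called 0 of the 13, against 0.170% higher and 0.223% lower of all genes read so little, and the difference of their sum rests on counts of at most 38 a gene.

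**Figure D4:**
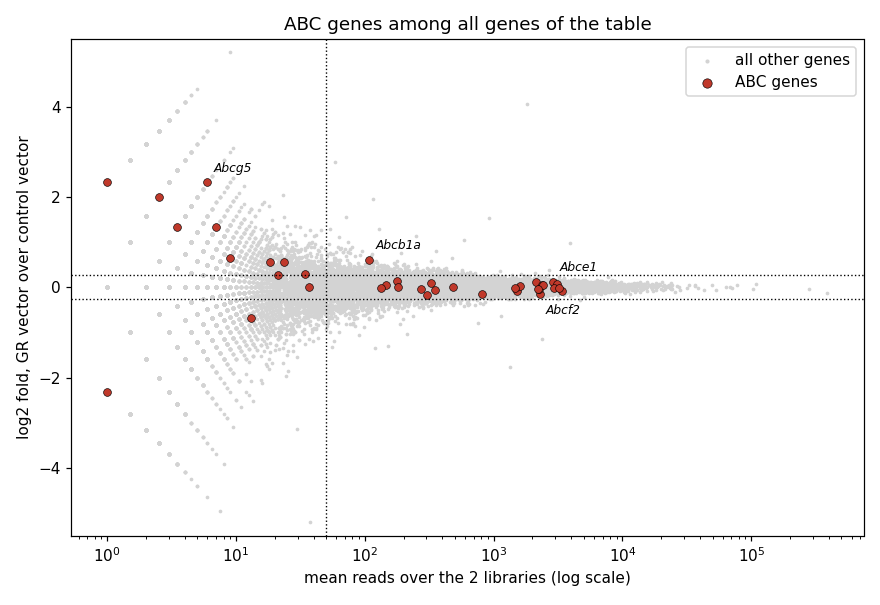
Log2 fold, GR vector over control vector, against mean reads (log scale) for 38 ABC genes (red) and the genes of the table outside the family (grey). For genes at 0 in one library, 0.5 reads were added to both, for drawing alone. Members with over 50 reads (vertical line) lie inside the 1.2-fold band (horizontal lines) except Abcb1a. Of the 13 under 50 reads, 10 had more reads with the GR vector, against 42.5% of all genes read so little.

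Genes that work with the ABC proteins were set beside them. In 9 lists (3 ABC genes with other symbols, sterol sensing and lipoproteins, xenobiotic response, peptide loading, heme and iron-sulfur clusters, peroxisomes, ribosome recycling and initiation, cobalamin and the potassium channel pore), 87 of 93 genes had a row and 80 averaged 50 reads or more. Of these, 0 were higher and 1 was lower past the fold of 1.2, against 4.03% and 3.96% of all genes so read. Many of the 80 averaged 1000 reads or more, where only 9 of 4867 genes were higher and 5 lower past that fold. The lists were not matched to all genes for depth. The median log2 fold change of the 80 was 0.0009. Their lower one was Ppox, of heme synthesis, with 543 reads with the GR vector and 690 with the control vector (fold 0.789, 95% interval 0.704 to 0.884). The library comparison called Ppox lower and Pdia3 higher, where it called 1.14% of all genes lower and 1.58% higher. Pdia3, a disulfide isomerase of the peptide loading complex, had 6929 reads with GR and 6434 with control (fold 1.08).

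The ABC genes with other symbols were the peptide transporters Tap1, with 384 reads with the GR vector and 437 with the control vector, Tap2, with 262 with GR and 269 with control, and Cftr, which had too few reads to compare. The most read sterol partners were Srebf1 (3801 reads with the GR vector and 4066 with the control vector) and Rxra (1889 with GR and 2018 with control). Those of xenobiotic response were Por (4093 with GR and 4266 with control) and Gstp1 (1562 with GR and 1628 with control). In the heme and iron-sulfur list these were Isca1 (1368 with GR and 1331 with control) and Cpox (1364 with GR and 1236 with control), and the peroxisome list included Scp2 (1821 with GR and 1721 with control). Ribosome factors were led by Eif1 (13158 with GR and 12969 with control) and Eif5 (6457 with GR and 6234 with control), peptide loading by Calr (8373 with GR and 8448 with control) and Pdia3, and cobalamin genes by Mmadhc (1464 with GR and 1375 with control) and Lmbrd1 (1425 with GR and 1263 with control). Lmbrd1, the lysosomal partner of Abcd4, had a fold of 1.13 (95% interval 1.048 to 1.22) and an adjusted p of 0.0526 in the exact binomial comparison of the libraries. Kcnj11, the pore that pairs with Abcc8, had 6071 reads with the GR vector and 6333 with the control vector, and Kcnj8, the pore that pairs with Abcc9, had 3 with GR and 4 with control.

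In the authors' deposited enrichment report, the set of ABC transporters had 47 genes, an enrichment score of 0.659 and a normalized score of 1.0496. It stood 3rd of 307 sets by the normalized score and 33rd by the enrichment score in that deposited report. Its nominal p was 0, a value given to 159 of the 307 sets, its FDR q was 1 and its family-wise p was 1. The 307 enrichment scores ran from 0.433 to 0.704, all positive by construction, since the deposited report is that of the GR side, and 301 of the normalized scores lay within 0.05 of 1 in the authors' deposited table. The peak of its running score came at rank 17876, with 85% of the set and 33% of the ranked list before it. By these values the ranked list is longer than the 21542 genes of the all-gene table. The 33% is therefore not a share of the genes of that table. In the authors' deposited table of the autophagy set, Atg3 stood at rank 16397 with a ratio of GR over control reads of 0.930, so the ABC peak lay further down than that ratio. The part of the list that leads the ABC score therefore held genes with fewer reads in the GR library. Of the 36 members outside the E and F subfamilies, 20 had a ratio of reads above 1 and 13 below 1, 4 of them below 0.930. Over the whole table, 15183 of 21542 genes had a ratio above 0.930. On scaled library sizes, 11313 of the 21542 had a fold above 1, equal reads counting as above. Abca13 and Abcd2 had equal reads in both libraries. Abcc12, with 2 reads with GR and 0 with control, has no ratio and is in neither count. Abcc6, with 0 reads with GR and 2 with control, is among those below 0.930. The member genes of the deposited ABC set were not analysed here.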

How the data were processed

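Messenger RNA of MIN6 cells was sequenced from 1 GR vector and 1 control vector culture. The deposited signal values are gene counts that the authors divided by a size factor per library, and they gave whole reads for 100% of values within 0.01 reads; the read counts were recovered from them. The authors' deposited log2 fold changes and p-values match the exact test of edgeR at an assumed dispersion of 0.04 to within 4.9e-08 (log2) and 4.5e-08 (p), so no spread between cultures entered them. DESeq2 1.10.1 is the tool listed, per the submitters' processing notes. No source used here gives the aligner or counter. Coordinates of 38 of the 40 members equal those of GENCODE M21 (GRCm38). In the deposited enrichment files, the scores are running sums, normalized by permutation in the authors' second score, and the ranking value is the ratio of GR over control reads, per the file headers and values.

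Computed here were folds on TMM-scaled library sizes (edgeR 4.0.16, R 4.3.3) with exact Clopper-Pearson 95% intervals, and an exact two-sided binomial comparison of the 2 libraries with Benjamini-Hochberg adjustment over all genes (scipy 1.17.1), tested on simulated data. The simulated libraries had counting error alone, so that check cannot speak to spread between cultures. A count of 0 allows up to 3 reads. Reads without molecular identifiers are not independent molecules. Sharing between genes was measured as the share of 31-base stretches found in another GENCODE gene, and the GC trend was a lowess fit over genes. Promoter windows, 250 bases before to 50 after a start, are from RefSeq (GRCm38.p6). The members and lists were chosen with earlier results of these data known. The rule for named genes took the members that averaged 50 reads or more, the 2 most read genes of each partner list and those past the fold; further low-read members, and Lmbrd1's interval, were named after their values were seen. Alternatives were other scalings, minimum reads, fold thresholds and preset dispersions, trend removal and leaving out genes with 25% or more shared stretches. Not analysed here were Abca12, Abca14, Abca15, Abca16, Abca6, Abca8a, Abca9, Abcc2 and Abcg3. Some genes that this rule takes are not reported here or drawn in the figures, but are included in the counts and sums.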

Additional observations from a re-analysis of the deposited data

How the results depend on the processing

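The counts past the fold of 1.2 were 1 higher and 0 lower under total-read, median-of-ratios and upper-quartile scaling, and with the GC or length trend removed, against 3.67% to 4.12% of all genes higher and 3.86% to 4.14% lower. They were the same with a minimum of 100 reads (2.68% and 2.36% of all genes) and a fold of 1.5 (0.413% and 0.454%). With a minimum of 10 reads 5 of 33 members were higher and 1 lower (8.85% and 9.56% of all genes), and with no minimum 11 and 2 of 40 (18.4% and 19.1%), since these settings admit genes of few reads. At a fold of 1.1 there were 2 higher and 3 lower of 27 (12.5% and 12.4%). Leaving out genes with 25% or more shared stretches removed Abcb1a and gave 0 higher and 0 lower of 26 (3.40% of all genes each way). In the comparison of the libraries, adjusting over genes that averaged 50 reads or more gave 3 higher and 1 lower (3.23% and 2.37%). The exact test of edgeR at an assumed dispersion of 0.01 gave 0 higher and 0 lower (0.0464% and 0.0279%), because a spread between cultures is assumed there. With 0.04, which repeats the authors' deposited test, it also gave 0 and 0 (0.00928% each way). The median log2 fold change ran from -0.01 to 0.04, and was above 0 with a minimum of 10 reads, with no minimum and with the GC trend removed (0.02). All 135 recomputed values of the 27 single genes stayed within their counting interval. No paired analysis was possible because each group has 1 library. For the same reason no library could be left out, and depth limits members under 50 reads.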
